A study of Mus musculus with 24 samples.

Results

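The genes described here serve peroxisomes and the oxidation of fatty acids, and were followed through 24 h of bortezomib in mouse multiple myeloma cell lines. They are 31 genes of the 10970 tested, found by gene symbol in the platform annotation, and 74 of the 45281 probes on the array carry one of these symbols. The rule that picks them uses gene names and no measured value, though the list was drawn up with earlier results of these data known. RNA was hybridised to Illumina bead arrays, on which each probe has an intensity. All 4 lines derive from multiple myeloma, a plasma cell cancer, of Bcl-XL/Myc double transgenic mice, on an FVBN background crossed with BL/6, so the controls carry both transgenes too. The promoters of the transgenes and the age of the mice are not given in the sources used here. Bortezomib inhibits the proteasome. By their labels 595sp and 638bm respond to it (the sensitive lines), while their counterparts named VR, 595sp VR and 638bm VR, resist it. The drug was given at 33 nM for 2, 8, 16 or 24 h, and an untreated sample (0 h) of every line stands beside these. There is 1 array for a line and time, except for 2 arrays at 24 h. Each arm, sensitive or resistant, therefore rests on n = 2 lines. No label says that samples came from separate cultures, so the p-values measure the spread between these samples.

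Mitochondrial beta-oxidation shortens fatty acids in repeated rounds of dehydrogenation, hydration, a further dehydrogenation and thiolytic cleavage, after the carnitine shuttle has carried the acyl groups across the inner membrane. Electrons from the first step pass through the electron transfer flavoprotein and its dehydrogenase to the respiratory chain. Peroxisomes shorten very long and branched acyl chains by a parallel set of enzymes that makes hydrogen peroxide, and peroxins, the products of the Pex genes, build the organelle and import its enzymes. The lists used below are 12 peroxisome biogenesis genes, 5 peroxisomal enzyme and transporter genes, 2 of the carnitine shuttle, 4 acyl-CoA dehydrogenases, 5 hydratase, hydroxyacyl dehydrogenase and thiolase genes and 3 of the electron transfer flavoprotein pathway.

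Sequence 5′ of the gene start was looked up in RefSeq (GRCm38.p6) for the members, and 27 of the 31 had a full window of 250 bases. Pex2, Pex19, Hsd17b4 and Acaa2 had none. Hadha and Hadhb, which encode both subunits of the mitochondrial trifunctional protein, start head to head on chromosome 5 with 272 bases between their starts. The 250 bases before Hadhb, nearly the whole shared stretch, are at chr5:30155003-30155252 on the plus strand, and are shown because these adjacent genes read differently below. The 250 bases before Acadvl, at chr11:70015429-70015678 on the minus strand, are shown because Acadvl was the member called higher at 8 h in the resistant lines. Capitals mark matches to the motifs searched, on either strand.
Hadhb: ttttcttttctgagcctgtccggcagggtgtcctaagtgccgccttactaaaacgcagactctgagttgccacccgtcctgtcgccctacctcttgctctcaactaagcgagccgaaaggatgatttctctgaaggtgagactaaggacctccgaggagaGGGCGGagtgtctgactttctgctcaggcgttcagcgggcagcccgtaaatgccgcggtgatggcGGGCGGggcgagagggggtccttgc
Acadvl: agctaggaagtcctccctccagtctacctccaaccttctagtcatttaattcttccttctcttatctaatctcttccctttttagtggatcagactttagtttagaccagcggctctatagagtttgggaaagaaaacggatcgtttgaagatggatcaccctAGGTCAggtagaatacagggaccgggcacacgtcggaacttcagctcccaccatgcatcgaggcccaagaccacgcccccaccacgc
The Hadhb window holds the GC box GGGCGG at 2 places, and the Acadvl window holds 1 copy of the nuclear receptor hexamer AGGTCA. The GC box was in 59.3% of the members' windows and in 32.9% of 27025 windows of all genes. The latter include genes that were not measured here, and the windows of Hadha and Hadhb share most of their bases. The CCAAT box (CCAAT) was in 33.3% against 34.5%, AGGTCA in 18.5% against 13.8%, and the antioxidant response element core TGACNNNGC in 3.7% against 10.1%. The E-box CACGTG was in 0 of the 27 windows and in 6.05% of all windows. Neither TCAAGGTCA, which contains AGGTCA, nor AGGTCA repeated with 1 base between was in a member's window, and these were in 0.366% and 0.037% of all windows. A match describes the letters in these windows only.

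A probe counted as above background where its raw log2 signal exceeded the array's background peak by 2.326 SD. Between 33.7% and 38.4% of all probes were above background on an array. Of the 74 member probes, 63 passed the filter of being above background on at least 2 of the 24 arrays, and every one of the 31 members kept at least 1 probe. The brightest kept probe stands for a gene, and it was above background on all 24 arrays for 26 members. Cpt1a's was above background on only 2 arrays, Hadh's on 19, those of Hadha and Pex13 on 21 and that of Pex11a on 23. The SD between both 24 h arrays of a line, over the members, ran from 0.084 to 0.197 log2 units. The plasma cell markers fitted the label in part: Sdc1, Slamf7, Xbp1, Irf4 and Mzb1 were above background on all arrays and Prdm1 and Tnfrsf17 on none. Of 3 B lineage markers measured, Cd79b was above background on all 24 arrays, Pax5 on 8 and Ms4a1 on 3. None of 4 T cell, 4 myeloid, 2 erythroid and 4 stromal markers measured was above background on every array. Csf1r, a myeloid receptor, was on 11 arrays and Cd3g, a T cell receptor component, on 12, reaching log2 values of 8.94 and 9.80, and their part in the results was not tested. In such bulk samples, fewer cells of a type and less RNA per cell cannot be told apart. The table's columns fall into runs of 6 consecutive columns, a candidate batch whose nature is not given. The log2 background was 5.45 to 5.54 in the first run, 6.05 to 6.19 in the second and 5.86 to 5.99 in the others. The first arrays of 595sp at all times lie within 1 run, whereas the time courses of 638bm, 595sp VR and 638bm VR cross runs. The title and a second label give different times for 4 of the 638bm VR samples, and the titles were used.

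Few members passed the test against their line's own untreated array, called at a Benjamini-Hochberg adjusted p under 0.05 in limma over all genes. In the sensitive lines, 0 of the 31 members passed at 2 h, where 0.0547% of all genes did, and 2 members had an unadjusted p under 0.05, beside 8.23% of all genes. At 8 h, 1 member was lower, beside 5.42% of all genes called. At 16 h, 1 was lower, beside 9.28%. At 24 h, 1 was higher and 2 were lower, beside 23.5% of all genes. An unadjusted p under 0.05 was reached there by 12 members, 38.7% of them, beside 35.1% of all genes. With a term for the runs of columns 8 members were called, where 1509 of all genes were higher and 1174 lower. The fit with that term, here and below, also took both 24 h arrays of a line as separate values. Its p-values at 24 h therefore treat arrays of the same line as replicates. In the main fit, with these arrays averaged and no such term, 1469 of all genes were higher and 1109 lower. Without a term for the line 0 members were called, where 63 of all genes were higher and 87 lower. Between 8 and 24 h of the sensitive lines, 3 members rose and 1 fell, beside 14.4%. In the resistant lines, 1 member was lower at 2 h (1.37% of all genes called), and 1 was higher and 1 lower at 8 h (4.05%). At 16 h and 24 h of the resistant lines 0 members passed, beside 1.39% and 1.51% of all genes, with 5 and 6 members at an unadjusted p under 0.05 (16.1% and 19.4%), where 14.3% and 13.9% of all genes were. Between 8 and 24 h of these lines 0 members and 0% of all genes passed, and 1 member had an unadjusted p under 0.05, beside 5.17% of all genes. The median change of the members in the sensitive lines was -0.121, -0.09, 0.046 and 0.167 at the 4 times in turn, beside medians of -0.012, -0.012, 0.022 and 0.059 over all genes. In the resistant lines the medians of the members were -0.171, 0.003, 0.017 and 0.091, beside -0.023, -0.005, 0.003 and 0.014.

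**Figure D1:**
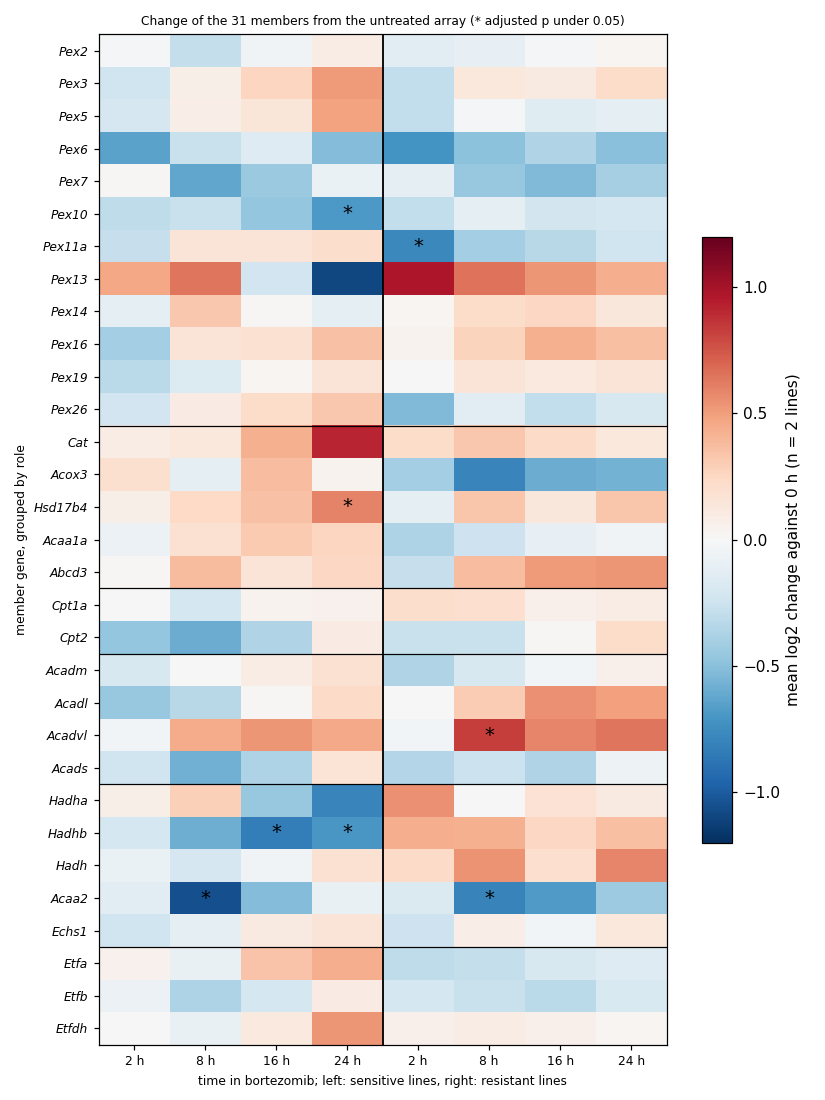
Mean log2 change from the untreated array for each of the 31 members (rows, grouped by role) at 2, 8, 16 and 24 h of bortezomib, in the sensitive lines on the left and the resistant lines on the right (n = 2 lines each). Asterisks mark changes with an adjusted p under 0.05, and Acaa2 is the only member marked in both arms.

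The clearest course was that of Acaa2, the mitochondrial thiolase that cleaves medium-chain ketoacyl-CoA in the last step of a round. Acaa2 in 595sp read 8.78, 8.58, 7.48 and 8.12 at 0, 2, 8 and 16 h, and 8.96 and 8.81 on the 24 h arrays. Acaa2 in 638bm read 7.83, 7.76, 7.02 and 7.46 at 0, 2, 8 and 16 h, and 7.58 and 7.52 on the 24 h arrays. Both sensitive lines were lowest at 8 h. For Acaa2, 595sp VR read 9.26, 9.01, 8.61 and 8.68 at 0, 2, 8 and 16 h, and 8.70 and 8.68 on the 24 h arrays. 638bm VR read 9.48, 9.38, 8.51 and 8.68 at 0, 2, 8 and 16 h, and 9.11 and 9.22 on the 24 h arrays for Acaa2. Both resistant lines were also lowest at 8 h, and every one of the 12 resistant arrays lay above every 638bm array. At 8 h Acaa2 fell by 1.06 ± 0.20 (SE) log2 units, 2.08-fold, in the sensitive lines (adjusted p = 0.00662) and by 0.80 ± 0.20, 1.75-fold, in the resistant lines (adjusted p = 0.0343). Between 8 and 24 h it rose by 0.97 ± 0.20 in the sensitive lines (adjusted p = 0.00725). Changes from 8 h, here and below, use the same 8 h arrays as the changes at 8 h. In the resistant lines the change at 24 h was -0.44 ± 0.20 (adjusted p = 0.343). All 4 kept Acaa2 probes were lower at 8 h, with changes of -1.06, -1.16, -1.06 and -0.98 in the sensitive and of -0.80, -0.99, -1.09 and -0.59 in the resistant lines.

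The 8 h change of Acaa2 was -1.30 in 595sp, within 1 run of columns, and -0.82 in 638bm, and the resistant lines changed by -0.65 (595sp VR) and -0.96 (638bm VR). With a term for the runs of columns, the 8 h changes were -1.04 in the sensitive lines (adjusted p = 0.0125) and -0.88 in the resistant lines (adjusted p = 0.0345). Where a line is left out, here and below, its arm keeps 1 line and adds nothing to the spread. Calls for that arm then rest on the spread of the other arm, and their p-values are not given. Without 595sp the sensitive change was not called at 8 h (-0.82), nor was the later rise (0.53). The resistant change was not called without 595sp VR (-0.96) or without 638bm VR (-0.65). With the times of the second label for 638bm VR it was not called either (-0.72, adjusted p = 0.143).

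Hadhb, which carries the thiolase activity of the trifunctional protein, was called lower in the sensitive lines at 16 and 24 h. Hadhb in 595sp read 10.07, 9.69, 9.21 and 9.35 at 0, 2, 8 and 16 h, and 9.20 and 9.84 on the 24 h arrays. Hadhb in 638bm read 11.54, 11.49, 11.22 and 10.59 at 0, 2, 8 and 16 h, and 10.74 and 10.64 on the 24 h arrays. The 24 h arrays of 595sp differed by more than those of any other line for this gene. In 595sp VR it read 9.15, 10.07, 9.86 and 9.81 at 0, 2, 8 and 16 h, and 9.84 and 9.83 on the 24 h arrays. For Hadhb, 638bm VR read 10.73, 10.68, 10.87 and 10.56 at 0, 2, 8 and 16 h, and 10.76 and 10.79 on the 24 h arrays. Among the 595sp VR arrays the untreated one was the lowest, whereas in both sensitive lines the untreated array was the highest. The untreated 595sp VR array lies in another run of columns than all treated arrays of that line. Within 595sp VR a step after 0 h and a shift between runs cannot be told apart. Hadhb fell by 0.83 ± 0.23 at 16 h (1.78-fold, adjusted p = 0.0337) and by 0.70 ± 0.23 at 24 h (1.63-fold, adjusted p = 0.0386) in the sensitive lines. In the resistant lines the changes were 0.24 ± 0.23 (adjusted p = 0.696) and 0.37 ± 0.23 (adjusted p = 0.522). The difference between both responses at 24 h, resistant minus sensitive, was 1.07 ± 0.33 and did not pass (adjusted p = 0.113). Once the runs of columns were a term, the 16 and 24 h changes of the sensitive lines were -0.81 (adjusted p = 0.0144) and -0.83 (adjusted p = 0.00299). Leaving out any 1 of the 4 lines ended both calls, with adjusted p of 0.0808 and 0.069 without either resistant line. Leaving out the first 24 h arrays also ended them, with adjusted p of 0.058 and 0.126.

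Hadha, the other trifunctional subunit, which holds the hydratase and hydroxyacyl dehydrogenase activities, has 1 kept probe. Hadha in 595sp read 8.04, 7.46, 8.25 and 7.39 at 0, 2, 8 and 16 h, and 6.55 and 5.99 on the 24 h arrays. Hadha in 638bm read 8.12, 8.85, 8.47 and 7.85 at 0, 2, 8 and 16 h, and 8.32 and 8.30 on the 24 h arrays. In 595sp the 24 h arrays were the lowest, whereas in 638bm every array was at 7.85 or above. 595sp VR read 5.59, 5.89, 5.40 and 5.71 at 0, 2, 8 and 16 h, and 5.20 and 5.45 on the 24 h arrays for Hadha. In 638bm VR it read 5.52, 6.32, 5.72 and 5.74 at 0, 2, 8 and 16 h, and 5.99 and 6.01 on the 24 h arrays. Every resistant array lay below every 638bm array, and at 24 h those of 638bm VR overlapped with the lower of the 595sp arrays. Untreated, Hadha was lower in the resistant lines, with a log2 difference of -2.53 ± 0.43 (5.76-fold, adjusted p = 0.00909), -2.45 in the 595sp pair and -2.60 in the 638bm pair. Its changes with time were not called, and the nearest to a call was the difference of -1.07 ± 0.35 between 8 and 24 h in the sensitive lines (adjusted p = 0.0504). For its partner Hadhb the untreated difference was -0.86 ± 0.31 and was not called (adjusted p = 0.123). Hadh, the short-chain hydroxyacyl-CoA dehydrogenase, changed in the resistant lines by 0.54 ± 0.18 at 8 h (adjusted p = 0.118) and 0.59 ± 0.18 at 24 h (adjusted p = 0.137), and its 2 highest arrays were of 595sp VR and 638bm VR at 24 h. Echs1, the short-chain enoyl-CoA hydratase, had mean changes between -0.25 and 0.16 against 0 h in both arms by its brightest probe. Its other kept probe, above background on 21 arrays, read 0.49 ± 0.27 at 8 h and -0.43 ± 0.27 at 24 h in the sensitive lines and 0.36 ± 0.27 at 2 h in the resistant lines, none called.

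Of the 4 acyl-CoA dehydrogenases, which take the first step of a round, 1 was called, in the resistant lines at 8 h, where 4.05% of all genes were. Acadvl, the enzyme for very long chains, in 595sp VR read 8.79, 8.97, 9.83 and 9.57 at 0, 2, 8 and 16 h, and 9.67 and 9.63 on the 24 h arrays. Acadvl in 638bm VR read 9.74, 9.50, 10.36 and 10.15 at 0, 2, 8 and 16 h, and 10.24 and 10.08 on the 24 h arrays. In both resistant lines the arrays from 8 h on lay above those at 0 and 2 h. In 595sp it read 8.96, 8.81, 9.48 and 9.91 at 0, 2, 8 and 16 h, and 9.48 and 9.68 on the 24 h arrays. In 638bm it read 9.13, 9.21, 9.50 and 9.24 at 0, 2, 8 and 16 h, and 9.46 and 9.37 on the 24 h arrays. In both sensitive lines, too, every array from 8 h on was above the untreated one. The rise at 8 h in the resistant lines was 0.83 ± 0.21 (1.78-fold, adjusted p = 0.0367), and both kept probes were called, at 0.83 and 0.86. In the sensitive lines the change was 0.44 ± 0.21 at 8 h (adjusted p = 0.243) and 0.45 ± 0.21 at 24 h (adjusted p = 0.138), and the responses of both arms at 24 h differed by 0.19 ± 0.30 (95% interval -0.44 to 0.82). With a term for the runs of columns the resistant change at 8 h was 0.61 (adjusted p = 0.0766) and the sensitive change at 24 h was 0.53 (adjusted p = 0.0431). The resistant call was also lost without 595sp VR (0.62), without 638bm VR (1.04) and with the second label's times (0.72, adjusted p = 0.184).

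The other 3 acyl-CoA dehydrogenases were not called in any comparison. Acads, for short chains, changed by 0.74 ± 0.25 between 8 and 24 h in the sensitive lines (adjusted p = 0.0553), with 1.43 in 595sp and 0.05 in 638bm. Acadm, for medium chains, had mean changes between -0.36 and 0.18 against 0 h in both arms. Acadl, for long chains, differed in course between lines of 1 arm: its change at 24 h was 1.05 in 595sp and -0.59 in 638bm, whereas 595sp VR had -0.06 and 638bm VR had 1.04. Its mean changes at 24 h, 0.23 ± 0.36 and 0.49 ± 0.36, were not called (adjusted p = 0.702 and 0.587).

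In the carnitine shuttle, Cpt1a, the outer membrane transferase, was above background on 2 arrays only, those of 595sp at 16 h (5.56) and the first at 24 h (5.49). Its probe read between 4.61 and 5.56 over all 24 arrays, so no change of Cpt1a could be measured. Cpt2, the inner membrane transferase that returns the acyl group to coenzyme A, was called in 1 comparison. Cpt2 in 595sp read 8.66, 8.09, 8.22 and 8.40 at 0, 2, 8 and 16 h, and 9.17 and 9.32 on the 24 h arrays. Cpt2 in 638bm read 9.03, 8.67, 8.28 and 8.56 at 0, 2, 8 and 16 h, and 8.63 and 8.64 on the 24 h arrays. In both lines all treated arrays up to 16 h lay below the untreated one, and 595sp alone passed its untreated level at 24 h. For Cpt2, 595sp VR read 9.36, 9.04, 9.17 and 9.36 at 0, 2, 8 and 16 h, and 9.57 and 9.69 on the 24 h arrays. 638bm VR read 8.93, 8.71, 8.59 and 8.97 at 0, 2, 8 and 16 h, and 9.11 and 9.11 on the 24 h arrays for Cpt2. The 595sp VR arrays at 24 h were the highest of all. Cpt2 rose by 0.69 ± 0.22 between 8 and 24 h in the sensitive lines (1.61-fold, adjusted p = 0.0441), by 1.02 in 595sp and 0.36 in 638bm. Its change against 0 h was -0.59 ± 0.22 at 8 h (adjusted p = 0.12) and 0.10 ± 0.22 at 24 h (adjusted p = 0.798). Leaving out 595sp gave a late rise of 0.36, which was not called, and a 24 h change of -0.39 against 0 h. Leaving out 638bm gave 0.59 for the latter, and leaving out either resistant line ended the late call (adjusted p = 0.142). So did the mean of Cpt2's probes (0.61, adjusted p = 0.0652), the second label's times (adjusted p = 0.056) and no filter on dim probes (adjusted p = 0.0531). Once the runs of columns were a term, the late rise was 0.58 (adjusted p = 0.047).

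Of the 3 electron transfer flavoprotein genes, 1 was called, between 8 and 24 h in the sensitive lines, where 14.4% of all genes were. Etfdh, the dehydrogenase that hands the electrons to ubiquinone, in 595sp read 8.09, 8.05, 8.35 and 8.38 at 0, 2, 8 and 16 h, and 9.00 and 8.92 on the 24 h arrays. Etfdh in 638bm read 8.00, 8.03, 7.56 and 7.94 at 0, 2, 8 and 16 h, and 8.09 and 8.31 on the 24 h arrays. In both lines the 24 h arrays lay above the 8 h array. In 595sp VR it read 8.58, 8.45, 8.52 and 8.47 at 0, 2, 8 and 16 h, and 8.56 and 8.43 on the 24 h arrays. For Etfdh, 638bm VR read 8.33, 8.58, 8.57 and 8.57 at 0, 2, 8 and 16 h, and 8.44 and 8.48 on the 24 h arrays. The resistant arrays all lay between 8.33 and 8.58. Etfdh rose by 0.62 ± 0.20 between 8 and 24 h in the sensitive lines (1.54-fold, adjusted p = 0.0454), by 0.61 in 595sp and 0.64 in 638bm. Against 0 h its change at 24 h was 0.53 ± 0.20 (adjusted p = 0.0611). With a term for the runs of columns these were 0.60 (adjusted p = 0.0183) and 0.69 (adjusted p = 0.0119). The late call ended without 595sp, without 638bm, without either resistant line (adjusted p = 0.137) and without the second 24 h arrays (adjusted p = 0.0695). Without the filter on dim probes its adjusted p was 0.0576, and the mean of both kept probes gave 0.12 (adjusted p = 0.707).

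Etfa and Etfb encode both subunits of the flavoprotein itself. Their late changes in the sensitive lines were 0.53 ± 0.18 for Etfa (adjusted p = 0.059) and 0.47 ± 0.17 for Etfb (adjusted p = 0.0712), neither called. For Etfb the 6 arrays of 638bm lay between 8.71 and 9.15, and those of 638bm VR between 11.30 and 11.59. The difference was 2.41 to 2.62 log2 units at every time. In the 595sp pair the difference of Etfb was between -0.49 and 0.08. The mean untreated difference of Etfb, 1.24 ± 0.91, was not called (adjusted p = 0.467).

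**Figure D2:**
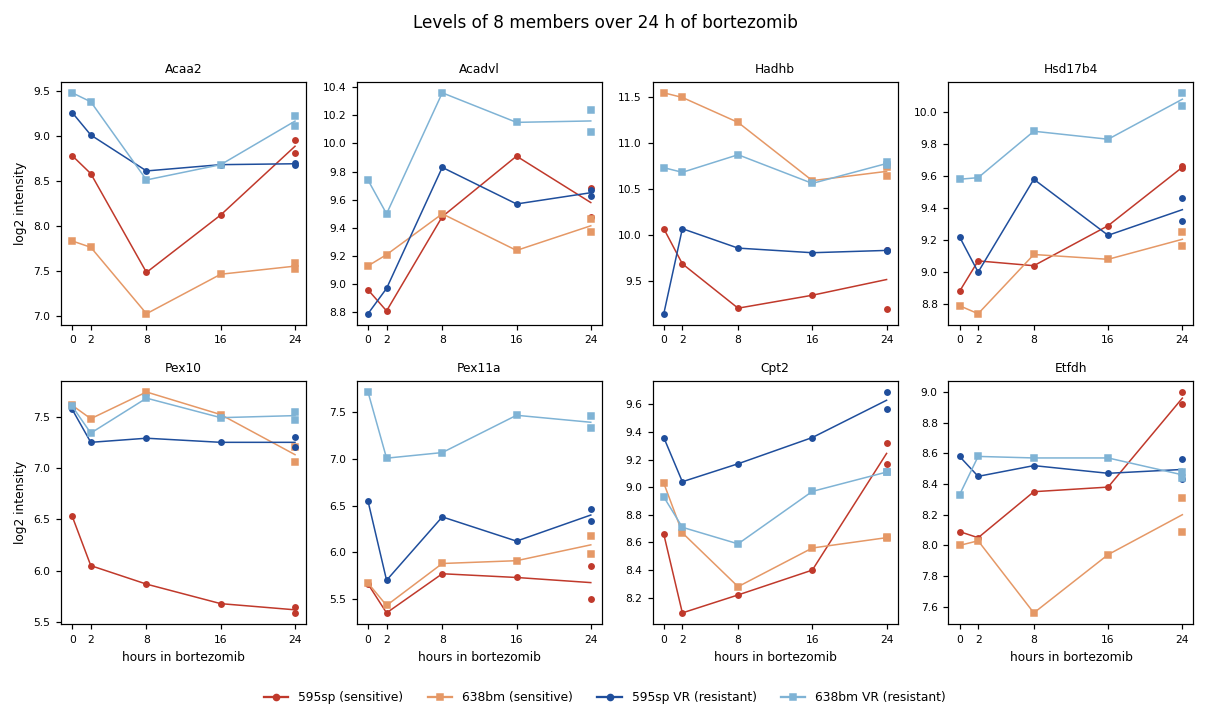
Log2 intensity (vertical axis, a scale of its own in each panel) against hours in bortezomib for 8 members called in a response comparison. Points are arrays, lines pass through the mean of the 24 h arrays, red shades mark the sensitive and blue shades the resistant lines, and some points overlap. Acaa2 is lowest at 8 h in all 4 lines.

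Among the peroxisomal enzymes and transporters 1 of 5 was called, in the sensitive lines at 24 h, where 23.5% of all genes were. Hsd17b4, the multifunctional enzyme that hydrates and dehydrogenates acyl chains in the peroxisome, in 595sp read 8.88, 9.07, 9.04 and 9.29 at 0, 2, 8 and 16 h, and 9.65 and 9.66 on the 24 h arrays. Hsd17b4 in 638bm read 8.79, 8.74, 9.11 and 9.08 at 0, 2, 8 and 16 h, and 9.16 and 9.25 on the 24 h arrays. In both lines the 24 h arrays were the highest. 595sp VR read 9.22, 9.00, 9.58 and 9.23 at 0, 2, 8 and 16 h, and 9.32 and 9.46 on the 24 h arrays for Hsd17b4. In 638bm VR it read 9.58, 9.59, 9.88 and 9.83 at 0, 2, 8 and 16 h, and 10.12 and 10.04 on the 24 h arrays. At 24 h all resistant arrays, too, were above their untreated array. The rise at 24 h in the sensitive lines was 0.59 ± 0.17 (1.51-fold, adjusted p = 0.0184), by 0.77 in 595sp and 0.42 in 638bm. In the resistant lines it was 0.33 ± 0.17 (adjusted p = 0.397), and the responses differed by -0.26 ± 0.24 (95% interval -0.76 to 0.24). Once the runs of columns were a term, the sensitive rise was 0.55 (adjusted p = 0.0238). The call ended without 595sp (0.42) and without either resistant line (adjusted p = 0.0657).

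Cat, the catalase that breaks down hydrogen peroxide, differed in course between the sensitive lines. Cat in 595sp read 6.70, 7.05, 7.44 and 7.79 at 0, 2, 8 and 16 h, and 8.56 and 9.05 on the 24 h arrays. Cat in 638bm read 7.89, 7.72, 7.40 and 7.65 at 0, 2, 8 and 16 h, and 7.74 and 7.48 on the 24 h arrays. It was higher at each later time in 595sp, and in 638bm no treated array was above the untreated one. The 12 resistant arrays lay between 8.27 and 8.87, so only the 24 h arrays of 595sp reached or passed the resistant range. The 24 h changes were 2.10 in 595sp and -0.28 in 638bm, and their mean, 0.91 ± 0.35, was not called (adjusted p = 0.0746). The untreated difference was 1.89 in the 595sp pair and 0.39 in the 638bm pair (mean 1.14 ± 0.41, adjusted p = 0.13). Acox3, an acyl-CoA oxidase for branched chains, changed by -0.79 ± 0.26 at 8 h in the resistant lines (adjusted p = 0.095), with -1.01 for 595sp VR and -0.58 for 638bm VR. The thiolase gene Acaa1a and Abcd3, a membrane transporter that brings acyl groups into the peroxisome, were not called, and their brightest probes had mean changes between -0.37 and 0.53 against 0 h in both arms. A dimmer Abcd3 probe, above background on 15 arrays, changed in the sensitive lines by 0.61 ± 0.32 at 2 h, 1.04 ± 0.32 at 8 h (adjusted p = 0.0708) and -0.34 ± 0.32 at 24 h.

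**Figure D3:**
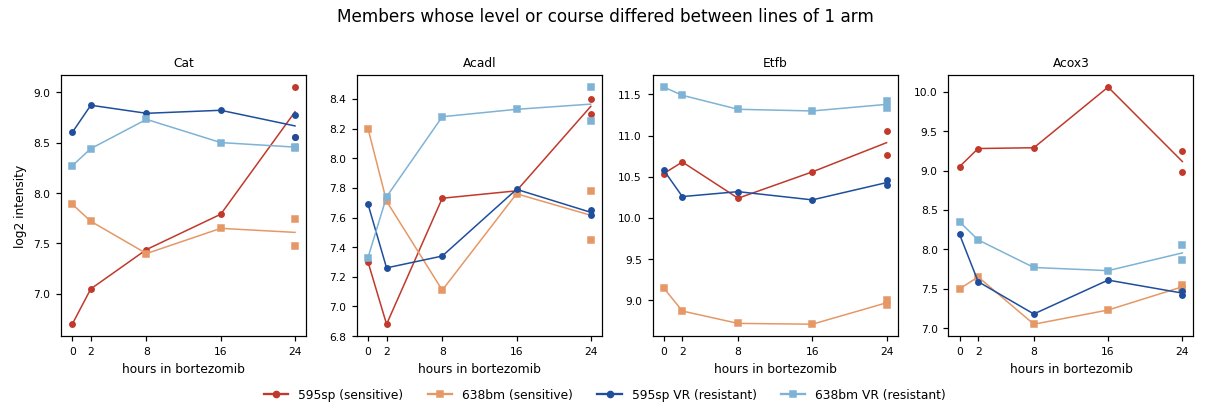
Log2 intensity against hours in bortezomib for Cat, Acadl, Etfb and Acox3, with points for arrays and lines through the mean of the 24 h arrays. Cat climbs in 595sp from 6.70 to 8.56 and 9.05 with no such course in 638bm, and the 638bm arrays for Etfb lie below those of every other line.

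Of the 12 peroxisome biogenesis genes, 1 was called in the sensitive lines at 24 h, where 23.5% of all genes were. Between 8 and 24 h in these lines 1 was called, beside 14.4% of all genes, and 1 in the resistant lines at 2 h, beside 1.37%. Pex10, a subunit of the ring-finger ubiquitin ligase complex of the peroxisomal membrane, in 595sp read 6.53, 6.05, 5.87 and 5.68 at 0, 2, 8 and 16 h, and 5.59 and 5.65 on the 24 h arrays. Pex10 in 638bm read 7.61, 7.48, 7.74 and 7.52 at 0, 2, 8 and 16 h, and 7.20 and 7.06 on the 24 h arrays. In 595sp all treated arrays were below the untreated one, and in 638bm those at 24 h were the lowest. For Pex10, 595sp VR read 7.57, 7.25, 7.29 and 7.25 at 0, 2, 8 and 16 h, and 7.30 and 7.20 on the 24 h arrays. 638bm VR read 7.60, 7.34, 7.68 and 7.49 at 0, 2, 8 and 16 h, and 7.47 and 7.55 on the 24 h arrays for Pex10. Each resistant line varied by less than 0.5 log2 units. The fall at 24 h in the sensitive lines was -0.69 ± 0.19 (1.61-fold, adjusted p = 0.0149), with -0.91 in 595sp and -0.48 in 638bm, and -0.79 with a term for the runs of columns (adjusted p = 0.00302). The call ended without 595sp (-0.48) and without either resistant line (adjusted p = 0.0631). A second kept Pex10 probe, above background on 2 arrays, changed by 0.09, and the mean of both gave -0.30 (adjusted p = 0.225).

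Pex11a, whose product promotes division of peroxisomes, was lower at 2 h in the resistant lines. Pex11a in 595sp VR read 6.55, 5.70, 6.38 and 6.12 at 0, 2, 8 and 16 h, and 6.46 and 6.34 on the 24 h arrays. Pex11a in 638bm VR read 7.72, 7.01, 7.07 and 7.47 at 0, 2, 8 and 16 h, and 7.46 and 7.33 on the 24 h arrays. In both lines the 2 h array was the lowest and the untreated array the highest. In 595sp it read 5.66, 5.35, 5.77 and 5.73 at 0, 2, 8 and 16 h, and 5.85 and 5.50 on the 24 h arrays. In 638bm it read 5.67, 5.43, 5.88 and 5.91 at 0, 2, 8 and 16 h, and 6.18 and 5.98 on the 24 h arrays. The sensitive arrays lay between 5.35 and 6.18. The fall at 2 h was -0.78 ± 0.18 in the resistant lines (1.71-fold, adjusted p = 0.0434), with -0.85 for 595sp VR and -0.70 for 638bm VR, and the other kept probes changed by -0.81, -0.39 and -0.36. With a term for the runs of columns it was -0.67 (adjusted p = 0.0883), and in 595sp VR the untreated and the 2 h arrays lie in different runs. The call also ended without 595sp VR, without 638bm VR, without the first 24 h arrays (adjusted p = 0.0544) and with the mean of its probes (-0.58, adjusted p = 0.056). Untreated, Pex11a differed by 1.47 ± 0.36 (adjusted p = 0.0355), by 0.89 in the 595sp pair and 2.04 in the 638bm pair. This missed the second condition for untreated lines, that both pairs differ by at least 1 log2 unit.

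Pex13, a membrane protein of the peroxisomal import machinery, has probes that disagree. Its brightest probe in 595sp read 8.32, 8.67, 9.41 and 8.41 at 0, 2, 8 and 16 h, and 6.62 and 6.18 on the 24 h arrays. In 638bm this probe read 8.07, 8.64, 8.26 and 7.51 at 0, 2, 8 and 16 h, and 7.81 and 7.81 on the 24 h arrays. Its 595sp values peaked at 8 h and were lowest at 24 h. In 595sp VR it read 5.34, 6.04, 6.00 and 5.59 at 0, 2, 8 and 16 h, and 5.51 and 5.39 on the 24 h arrays. For Pex13, 638bm VR read 5.07, 6.31, 5.72 and 5.89 at 0, 2, 8 and 16 h, and 5.82 and 5.85 on the 24 h arrays. Untreated, it was above background on 0 of 2 resistant arrays. The resistant level was at least 6.68-fold lower than the sensitive one, with measured means of 5.21 and 8.19 (adjusted p = 0.00555), and each pair gives only a bound. At the later times the measured difference was between -3.41 and -0.95 in the 595sp pair and between -2.54 and -1.63 in the 638bm pair, and on the second 24 h array of 595sp VR, too, the probe was not above background. Between 8 and 24 h this probe fell in the sensitive lines, with a change of -1.73 ± 0.40 (3.31-fold, adjusted p = 0.0118), -3.01 in 595sp and -0.45 in 638bm. With the term for the runs of columns it was -1.56 (adjusted p = 0.00694), and it was not called without 595sp (-0.45) or without either resistant line (adjusted p = 0.0647). The other kept Pex13 probe, above background on 14 arrays, read between 5.07 and 5.94 on all arrays, with an untreated difference of 0.07 ± 0.21 and a late change of 0.19 ± 0.20, and the mean of both probes gave a late change of -0.77 (adjusted p = 0.0178). Where these probes lie in the transcript was not analysed here.

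**Figure D4:**
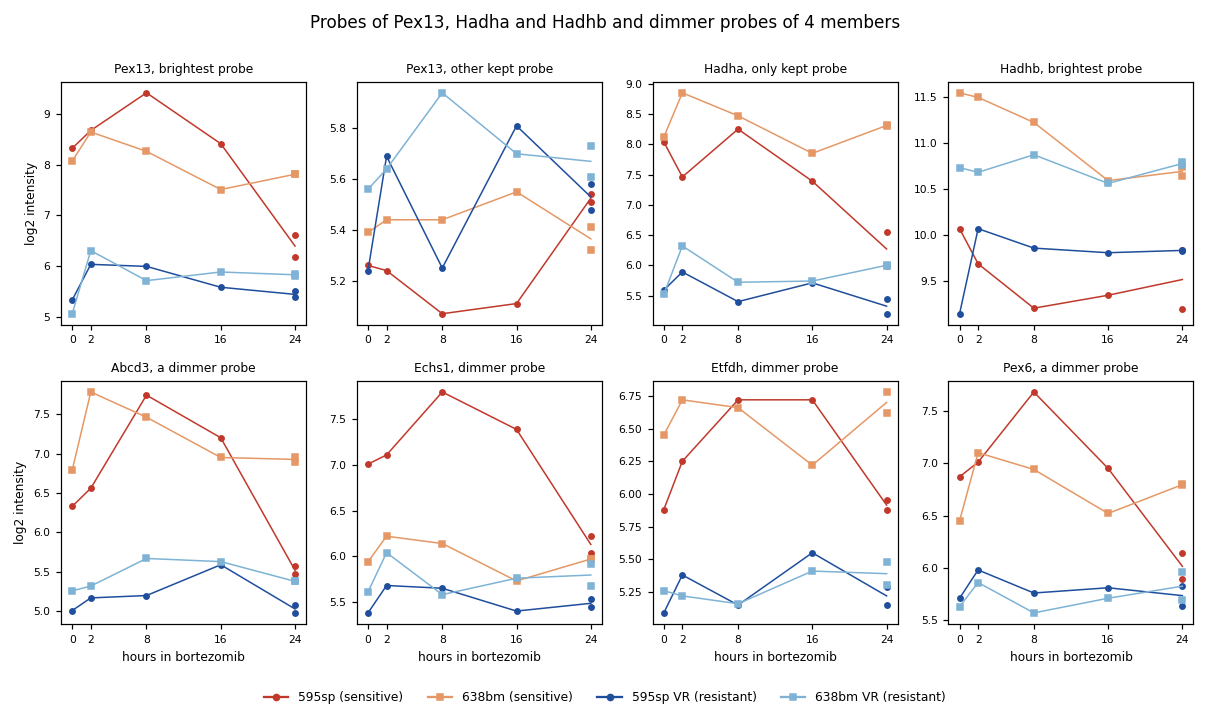
Log2 intensity against hours in bortezomib for both kept Pex13 probes, the kept probes of Hadha and Hadhb and dimmer probes of Abcd3, Echs1, Etfdh and Pex6 (vertical scales differ). The Pex13 and Hadha probes lie at 5.07 to 6.32 in the resistant lines, and Pex13's other kept probe stays between 5.07 and 5.94 in all lines.

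Of the 20 members with 2 or more kept probes, 11 had a probe whose change differed from that of the brightest by over 0.5 log2 units in some comparison. Like the Pex13 and Hadha probes, dimmer probes of Abcd3, Echs1, Etfdh and Pex6 had negative untreated differences, resistant minus sensitive, of -1.42 ± 0.36, -0.98 ± 0.52, -0.99 ± 0.27 and -0.99 ± 0.28. Of these 4, which were picked after their values were seen, that of Abcd3 was called in the fit over probes (adjusted p = 0.0355). Between 8 and 24 h in the sensitive lines these probes changed by -1.38 ± 0.32, -0.92 ± 0.27, -0.39 ± 0.24 and -0.91 ± 0.26, and those of Abcd3, Echs1 and Pex6 were called (adjusted p = 0.00938, 0.0302 and 0.0248). Further kept probes differed untreated by -0.14 and 0.04 for Abcd3 and by 0.35 and -0.27 for Pex6. The brightest probes of the same genes differed untreated by -0.64, 0.50, 0.41 and -0.36 and changed late by -0.13, 0.27, 0.62 and -0.25. Pex7, the receptor for one class of import signals, had a second probe at 0.30 ± 0.20 at 8 h in the resistant lines where the first read -0.45 ± 0.24. For Acox3 at 24 h in the resistant lines the probes read -0.57 and -0.02, and for Etfa at 2 h in these lines they read -0.30, 0.16 and 0.33. Second probes of Cat and Pex11a, above background on 5 arrays each, differed untreated by 0.45 and 0.64 where the brightest read 1.14 and 1.47.

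The remaining biogenesis genes were not called. Pex6, an ATPase that recycles the import receptor, had changes of -0.64 ± 0.19 in the sensitive lines (adjusted p = 0.309) and -0.72 ± 0.19 in the resistant lines (adjusted p = 0.0831) at 2 h. Its probes disagreed there: the others kept read 0.40, -0.10 and -0.72 in the sensitive lines and 0.26, -0.61 and -0.68 in the resistant lines. Pex5, that receptor, changed by 0.49 ± 0.18 at 24 h in the sensitive lines (adjusted p = 0.0581). Pex3, which anchors membrane protein import, changed by 0.51 ± 0.20 there (adjusted p = 0.0711). Pex2, Pex14, Pex16, Pex19 and Pex26, which act in receptor recycling, docking and membrane assembly, had mean changes between -0.53 and 0.42 log2 units at all times in both arms.

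Responses of the resistant and the sensitive lines were compared directly by the interaction term. At 2, 8 and 16 h, 0 members and 0% of all genes passed in limma, with 0, 3 and 2 members at an unadjusted p under 0.05, beside 2.82%, 6.94% and 10.8% of all genes. At 24 h, 0 members and 1.26% of all genes passed, and 4 members (12.9%) had an unadjusted p under 0.05, beside 16.9% of all genes. The members nearest to a call at 24 h were Hadhb and Pex13, at 1.07 ± 0.33 (adjusted p = 0.113) and 1.53 ± 0.57 (adjusted p = 0.186). Between untreated lines 2 members were called, beside 2.67% of all genes: the brightest probe of Pex13 and the only kept probe of Hadha read lower in the resistant lines. The other kept Pex13 probe differed by 0.07 ± 0.21, so the call of Pex13 holds for 1 probe. The median untreated difference of the members was 0.23, beside 0.09 over all genes.

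Other genes of these pathways were looked at by 3 lists. The first had 39 further peroxisome genes, of which 26 were measured. The second, here the oxidation list, had 24 further genes of mitochondrial fatty acid oxidation and related acyl-CoA metabolism, of which 19 were measured. The third had 20 regulators and PPAR target genes, of which 12 were measured. In the sensitive lines at 8 h, 1 of the 26 peroxisome genes was higher and 3 were lower, where 5.42% of all genes were called. Pxmp4, a peroxisomal membrane protein, changed by -0.73 ± 0.16 (adjusted p = 0.0156) and Ech1, a dienoyl-CoA isomerase, by -0.61 ± 0.15 (adjusted p = 0.0318). Idh1, the cytosolic and peroxisomal isocitrate dehydrogenase, fell by 0.80 ± 0.19 (adjusted p = 0.0242), and Dnm1l, a dynamin that divides peroxisomes and mitochondria, rose by 0.56 ± 0.16 (adjusted p = 0.0476). Of the 19 genes of the oxidation list 2 were lower, Acot13 at -0.99 ± 0.21 (adjusted p = 0.0142) and Mlycd, which degrades malonyl-CoA, at -0.94 ± 0.25 (adjusted p = 0.0351). From the same 8 h arrays to 24 h both rose, by 1.10 ± 0.21 (adjusted p = 0.00494) and 1.06 ± 0.25 (adjusted p = 0.0116).

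At 24 h in the sensitive lines 3 of the 26 further peroxisome genes were higher and 2 lower, where 23.5% of all genes were called. Of the 19 genes of the oxidation list 2 were higher and 4 lower. Acsl3 and Acsl5, acyl-CoA synthetases that activate fatty acids, fell by 2.12 ± 0.33 (adjusted p = 0.000353) and 1.19 ± 0.19 (adjusted p = 0.000436). Acad8, of the same list, rose by 0.93 ± 0.19 (adjusted p = 0.00249). Of the peroxisome list, the enoyl-CoA isomerase Eci2 rose by 0.96 ± 0.16 (adjusted p = 0.000647), and Mff, a receptor for the dynamin, by 0.91 ± 0.23 (adjusted p = 0.00868). Gnpat, also of the peroxisome list, fell by 0.66 ± 0.17 (adjusted p = 0.0105). Of the 12 regulators and targets, Plin2, a lipid droplet coat protein, rose by 1.30 ± 0.34 (adjusted p = 0.012) and the coactivator Ppargc1b fell by 1.09 ± 0.24 (adjusted p = 0.00434). Acsl3, Acsl5 and Ppargc1b were also lower in the untreated resistant lines, with log2 differences of -1.83 ± 0.37, -1.27 ± 0.22 and -1.12 ± 0.27 (adjusted p = 0.0166, 0.0102 and 0.0342), and these comparisons share the untreated sensitive arrays. At 24 h the response of Acsl5 differed between the arms by 1.14 ± 0.27 (adjusted p = 0.0489). In the resistant lines Txnip, a regulator of glucose uptake, changed by -1.67 ± 0.31 at 8 h (adjusted p = 0.00749) and -1.46 ± 0.31 at 24 h (adjusted p = 0.0276), and Idh1 by -0.84 ± 0.19 at 8 h (adjusted p = 0.0234). Between untreated lines 0 of the 26 peroxisome genes passed, where 2.67% of all genes did, and 6 (23.1%) had an unadjusted p under 0.05 in limma, beside 21.7% of all genes. The difference was positive for 25 of the 26 and for 57.5% of all genes, with medians of 0.40 and 0.09. Among the members it was positive for 7 of the 12 biogenesis genes (median 0.09) and 3 of the 5 peroxisomal enzyme and transporter genes (median 0.30). All these differences are read from the same untreated arrays, so the genes are not independent of each other.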

How the data were processed

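Total RNA was labelled and hybridised to 1-colour Illumina mouse bead arrays, per the labels' protocols. The deposited table holds, per the file headers, the average bead intensity of each probe, not normalized, and a second deposited table holds the authors' processed intensity, with nearly equal sorted values on every array (median 64.4). The scale is linear, and the sources used here do not name the processing tool. The intensities were corrected with normexp (offset 16), quantile normalized and taken to log2 values in limma 3.58.1 under R 4.3.3. Probes were kept where at least 2 arrays exceeded background, those with 1 gene symbol were joined to genes, and the brightest stood for the gene. The 24 h arrays of a line were averaged, leaving 20 values. Responses were fitted with a term for each line and for sensitivity by time, with 8 residual degrees of freedom. Untreated lines were compared in a model of origin, time and sensitivity by time, where the other times of the same lines supply most residual degrees of freedom, so p-values are too small where the pairs disagree, and a call also needed both pairs to differ by at least 1 log2 unit. All p-values were Benjamini-Hochberg adjusted over 10970 genes, or over 17972 probes for single probes. The number of arrays limits the precision. Every member is named, with all samples' values for those called. Of the other lists, up to 4 called genes of a list are named in a comparison, and not all called genes are. The members and lists were chosen with earlier results of these data known. Alternatives changed the background correction, offset, normalization, source table, filter, choice of probe, line term, column runs, times of 638bm VR, and left out 24 h arrays or lines. The fit with column runs also left the 24 h arrays unaveraged.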

Additional observations from a re-analysis of the deposited data

Results flagged for a closer look

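Pex6 read 9.03 on the first 24 h array of 595sp VR, where the other resistant arrays at 24 h read 9.18, 9.19 and 9.19, so its gap to the nearest took up more of the range of these 4 arrays than Dixon's critical value for 4 values allows. Of 62 such groups tested this was 1, and among 4 like samples chance sets apart about 1 in 20. That rate need not hold here, since each group is 2 arrays from each of 2 lines.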

How the results depend on the processing

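Across 16 settings, the counts of members called were 0 throughout in the sensitive lines at 2 h, the resistant lines at 16 h and between 8 and 24 h, and the differences of response at 2, 8 and 16 h. Both untreated calls were made under all 12 settings that apply to them, with measured differences of Pex13 between -3.01 and -1.46 and Hadha between -2.60 and -1.91. These settings cannot show whether a second probe reads the same way. Hadha has no other kept probe, and the other kept Pex13 probe differed untreated by 0.07 ± 0.21. Without the cell line term, which pairs the samples of a line, 0 members were called in any response comparison. With a block for the runs of columns, 3 members were called in the sensitive lines at 16 h, 8 at 24 h and 7 between 8 and 24 h, and 0 and 1 in the resistant lines at 2 and 8 h. In the sensitive lines the block called 525 of all genes higher and 486 lower at 16 h. It called 1509 and 1174 at 24 h, and 1388 and 992 between 8 and 24 h. In the main fit, with no block and the 24 h arrays averaged rather than taken singly, these were 542 and 476, 1469 and 1109, and 864 and 719. In the sensitive lines at 24 h, 6 were called without background correction, 5 with the offset of 50 and 5 from the authors' table, in place of 3. Over all genes these settings called 1511, 1498 and 1509 higher and 1081, 1064 and 1079 lower. Between 8 and 24 h, in place of 4, 7 were called with median scaling, 7 with probes above background on at least 12 arrays and 2 with no filter. Over all genes these called 1254, 951 and 736 higher and 448, 760 and 649 lower. The mean of a gene's probes gave 2 at 16 h in the sensitive and 0 at 2 h in the resistant lines. Median scaling gave 0 at 2 h and 1 at 24 h in the resistant lines, and the second label's times gave 0 at 8 h. Leaving out a line or a set of 24 h arrays gave from 0 to 3 members at 8 h, 0 to 4 at 16 h, 0 to 10 at 24 h and 0 to 8 between 8 and 24 h in the sensitive lines, the most without 638bm. It gave 0 to 3 in the resistant lines at 2 and at 8 h, and 0 to 3 for the difference of response at 24 h. The 24 h change of Cpt2 in the sensitive lines turned to -0.39 without 595sp and was 0.59 without 638bm. Median scaling moved the median of all genes by 0.109 for the resistant lines at 16 h and by 0.113 to 0.178 for the differences of response. Calls also lost were Hadhb at 24 h (-0.65, adjusted p = 0.0733), Pex11a (-0.69, adjusted p = 0.0774) and Acaa2 in the resistant lines (-0.80, adjusted p = 0.0562) with median scaling. Where no count over all genes is given for a setting, the count of members is not a result about the members. Fewer samples are fitted where a line is left out, and the arm left with 1 line adds nothing to the spread. Counts for that arm then rest on the spread of the other arm. The cause of the other shifts was not tested. Depth of signal limits Cpt1a, Hadh, Pex11a and the Pex13 and Hadha probes in the resistant lines.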
